A study of Mus musculus with 4 samples.

Results

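The 39 genes described here encode the core apoptosis machinery of the mouse: the Bcl2 family, the caspases with their activating scaffold, the death receptors with their adaptors, proteins released from mitochondria, nucleases, and the inhibitors that hold these in check. They were chosen by name from the 56748 genes of the deposited count table, and all 39 passed the filter on low counts, which 18157 genes passed in all. The study asked how loss of Npac (also called Glyr1), a chromatin protein that reads histone H3 trimethylated at lysine 36, changes E14 cells, a line of mouse embryonic stem cells. RNA-seq was performed on 4 libraries of total RNA. WT1 and WT2 were made from E14 cells of WT genotype, and KO1 and KO2 from E14 cells with an Npac knockout made by CRISPR/Cas9. Each KO library came from a different KO clone, so each clone has 1 library, and the labels do not say whether the WT libraries came from separate cultures. All groups were grown feeder free on gelatin in serum and LIF per the study's methods, and no age, treatment or time differs in the labels.

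Apoptosis runs by an intrinsic and an extrinsic route. In the intrinsic route, BH3-only proteins sense stress and either bind and block the Bcl2-type inhibitors or activate the effectors Bax, Bak1 and Bok, which open the outer mitochondrial membrane; cytochrome c then joins Apaf1 and Casp9 in the apoptosome. In the extrinsic route, death receptors such as Fas recruit Fadd and Casp8, with Cflar as the inhibitor at that step. Both routes end in executioner caspases and in nucleases that cut nuclear DNA, and embryonic stem cells are known to enter apoptosis readily after DNA damage.

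The libraries held between 15850805 and 16965120 counted reads. Values below are CPM, the reads of a gene over the library's total, scaled by the TMM method, which compare a gene between libraries, and FPKM as deposited by the authors, which divides by gene length and is used wherever levels of different genes are compared. Glyr1 had 3961 and 3115 reads in WT1 and WT2 and 744 and 888 reads in KO1 and KO2, so the values of the targeted gene follow the labels. All 9 embryonic stem cell markers examined were read in every library. Their summed level was 5876 to 7180 CPM in WT cells and 4784 to 5048 CPM in KO cells. Zfp42, 1 of the 9, fell, while DESeq2 called 3 of the 9 lower. Both KO libraries lay below both WT libraries in 5 of the 9, and above them in 3, Dppa5a, Dppa4 and Utf1. Primitive endoderm markers summed to 31.8 to 32.5 CPM in WT cells and 20.4 to 27.7 CPM in KO cells over 7 genes. Of these, Sox7 fell, from 17.9 and 9.27 CPM in WT1 and WT2 to 0.257 and 0.925 CPM in KO1 and KO2. Among the 6 markers tested, both KO libraries lay above both WT libraries in 3, Gata4, Gata6 and Pdgfra, and below them in 2. Fibroblast markers summed to 35.8 to 59.1 CPM in WT cells and 45.1 to 50.7 CPM in KO cells over 7 genes. Thy1 made up most of this sum, at 29.99 and 49.11 CPM in WT cells and 25.54 and 30.85 CPM in KO cells. Col1a2, with 3 and 5 reads in WT cells against 18 and 16 reads in KO cells, was not called. Col1a1, which lies on chromosome 11, rose from 5.57 and 9.62 CPM to 18.3 and 18.8 CPM. The genes of that chromosome were higher as a group in KO1 and KO2, with log2 medians of 0.51 and 0.48 relative to all genes. Col3a1 and Dcn had 0 reads in every library, which allows up to 3 reads each by counting error. The share of reads from the mitochondrial genome was 1.41% to 1.54% in WT cells and 1.79% to 1.91% in KO cells. The part of these differences in the results below was not tested, and in bulk RNA fewer cells of a type and less RNA per cell cannot be told apart.

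A gene was called when edgeR's quasi-likelihood test gave a Benjamini-Hochberg adjusted p under 0.05 over all genes tested and the fold change exceeded 1.5. The p-values measure only the spread between these libraries. Of the 39 apoptosis genes, 5 rose in KO cells (12.8%), where 11.0% of all genes tested rose, and 21.7% changed in either direction. The 5 were Pmaip1, Endog, Csrnp3, Bok and Apaf1. Another 2 fell (5.13%), Bcl2l1 and Cflar, where 10.7% of all genes tested fell. The share that rose was thus near that of all genes, and the share that fell was below it. The median log2 fold change was -0.0126 over the 39 genes and 0.0015 over all genes tested. The set holds 10 genes grouped as inhibitors, either of the Bcl2 type or acting mostly at caspases and receptors. The other groups hold 29 genes, most of which promote death. The genes that rose all belong to the 29 and those that fell to the 10: among the first, 5 rose and 0 fell, and among the second, 0 rose and 2 fell. This split holds only for the set, whose members were chosen with earlier results of these data known. Of the further pathway genes described below, 6 rose and 3 fell. Those that fell were the BH3-only gene Hrk, Csrnp1 and Faf1, with log2 fold changes of -3.50, -1.74 and -0.66. At an unadjusted p under 0.05, 9 of the 29 were higher and 0 lower in KO cells, and 0 of the 10 inhibitors were higher and 2 lower. At that p, 18.7% of all genes tested were higher and 18.8% lower. DESeq2 gave the counts of the adjusted test in all of these groups. The median log2 fold change was 0.04 over the 29 genes and -0.19 over the 10.

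**Figure D1:**
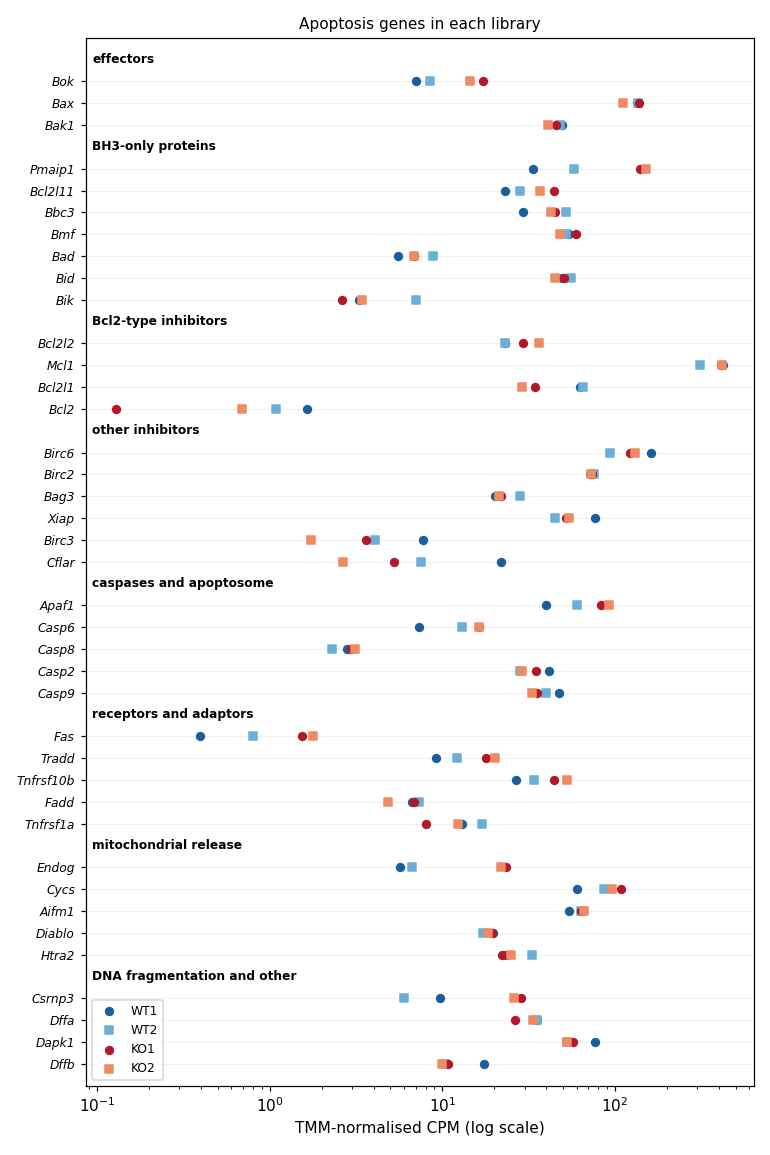
TMM-normalised CPM (log axis) of the 39 apoptosis genes, 1 row per gene grouped by role, with 1 point per library; blue points are WT1 and WT2, red and orange points KO1 and KO2. Both KO points lie to the right of both WT points in 14 genes and to the left in 8 genes, and the groups overlap in 17 genes.

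The KO libraries both lay above both WT libraries in 14 of the 39 genes and below them in 8 genes. Over all genes tested these shares were 33.2% and 32.5%. The WT libraries differed from each other by more than 1.5-fold in 14 of the 39 genes, 7 in each direction, and the KO libraries in 4 genes. Over the 17836 genes tested with reads in every library, the corresponding shares were 34.0% for WT and 17.9% for KO. In a fit that treated KO1 and KO2 as separate groups, with the spread taken from the WT pair, Pmaip1, Endog and Csrnp3 were called higher in KO1 and the same 3 genes in KO2, and 0 of the 39 genes were called lower in either line. These comparisons share the WT libraries. They called 7.17% of all genes for KO1 and 5.44% for KO2.

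The effectors were read at very different levels. Bax, the main pore-forming effector, had the second highest level per length of the 39 genes in both genotypes, at 84.8 ± 0.130 FPKM in WT cells and 78.1 ± 12.0 FPKM in KO cells (SD, n = 2 each). In CPM, WT1 and WT2 had 134 and 135, KO1 had 137 and KO2 had 112, so the groups overlapped. The log2 fold change of Bax was -0.12 (standard error 0.18, edgeR adjusted p = 0.687). Bak1, its close relative on mitochondria, had 49.3 and 48.2 CPM in WT cells against 45.7 and 41.0 CPM in KO cells. Both KO values were lower, by a log2 fold change of -0.17 that did not pass the test (standard error 0.19, edgeR adjusted p = 0.547).

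Bok, an effector that is less dependent on upstream activation, was the lowest of the 3 and rose in KO cells. It lies on chromosome 1 from 93613382 to 93623486 on the plus strand, as the authors' table gives it. Bok had 7.07 and 8.47 CPM in WT1 and WT2, and 17.2 and 14.5 CPM in KO1 and KO2. The groups were well separated, and the log2 fold change was 1.03 (standard error 0.29, edgeR adjusted p = 0.0414). With KO1 or KO2 as the only KO library, the log2 fold change was 1.16 or 0.89 and no longer passed the test. Bok made up 3.51% and 4.18% of the summed FPKM of the 3 effectors in WT cells and 8.13% and 8.22% in KO cells, so Bax remained the main transcript of this group in every library.

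Among the 7 BH3-only genes of the set, 1 rose, 0 fell and 6 did not pass the test. Pmaip1, which encodes Noxa, a stress-induced partner of Mcl1, is on chromosome 18 from 66591604 to 66598636 on the plus strand. WT1 and WT2 had 33.4 and 57.6 CPM of it, and KO1 and KO2 had 139 and 152 CPM. The WT libraries differed by 1.73-fold, but both KO libraries were more than 2-fold above the higher of them. The log2 fold change was 1.68 (standard error 0.27, edgeR adjusted p = 0.00681), and it ranged from 1.31 to 2.12 over the fits lacking 1 library, all of which kept the call. Pmaip1 moved from the sixth to the third highest FPKM among the 39 genes.

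Bcl2l11, which encodes Bim, a direct activator of the effectors, had 23.2 and 28.3 CPM in WT cells against 44.3 and 36.7 CPM in KO cells. Both KO values were higher, with a log2 fold change of 0.65 that missed the threshold (standard error 0.22, edgeR adjusted p = 0.0684). Bbc3, which encodes Puma, had 29.3 CPM in WT1 and 52.3 CPM in WT2, and the KO values of 44.9 and 42.5 CPM lay between them. Its log2 fold change was 0.10 (standard error 0.28, edgeR adjusted p = 0.832). Without WT1 it was -0.29 and without WT2 it was 0.57, so the direction for Bbc3 differed with the WT library used. Bid, which links Casp8 to mitochondria, and Bmf, which senses changes of the cytoskeleton, had log2 fold changes of -0.13 and 0.02. Bad, the BH3-only protein silenced by survival kinases, had -0.06, and Bik, found at the endoplasmic reticulum, had -0.77 (standard error 0.48, edgeR adjusted p = 0.281) from 50 and 123 reads in WT cells and 41 and 59 reads in KO cells. All 4 of these genes overlapped between the groups. Bik was at -1.24 and called without WT1 (edgeR adjusted p = 0.0214), and at -0.12 without WT2.

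**Figure D2:**
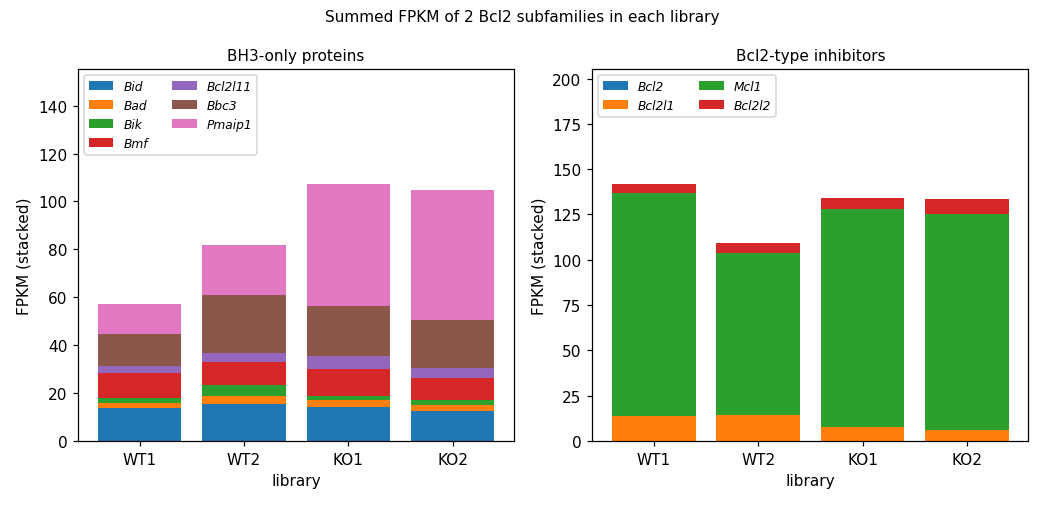
FPKM of the 7 BH3-only genes of the set, which leaves out Hrk (left), and the 4 Bcl2-type inhibitor genes (right), stacked for each library. The axis is linear from 0, with 1 colour per gene. Pmaip1 is the thickest layer on the left in KO1 and KO2 (47.4% and 52.0% of the sum), and Mcl1 is the thickest layer on the right in every library.

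The make-up of the transcripts of these 7 BH3-only genes therefore differed between the genotypes, as the plot of stacked FPKM shows. Their summed level was 57.0 and 81.9 FPKM in WT cells and 107 and 105 FPKM in KO cells. Pmaip1 made up 21.3% and 25.5% of it in WT cells and 47.4% and 52.0% in KO cells. Bbc3 had the highest share in WT2, at 29.8%, and held 24.1% in WT1 and 18.7% to 19.7% in KO cells. Bid held 24.3% in WT1, 18.9% in WT2 and 11.9% to 13.3% in KO cells, and so came after Pmaip1 in WT2 as well. These shares rest largely on Pmaip1, and no test was applied to them. They leave out Hrk, a further BH3-only gene outside the set, so the sums and shares hold for these 7 genes only. Hrk had 20.7 and 9.81 FPKM in WT1 and WT2 and 0.971 and 1.69 FPKM in KO1 and KO2.

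Of the 4 Bcl2-type inhibitors, 1 fell. Bcl2l1, which encodes Bcl-xL and lies on chromosome 2 from 152622588 to 152673648 on the minus strand, had 62.7 and 65.0 CPM in WT1 and WT2, and 34.4 and 29.0 CPM in KO1 and KO2. The WT libraries nearly coincided, and WT cells were 2.02-fold above KO cells. The log2 fold change was -1.01 (standard error 0.19, edgeR adjusted p = 0.0118). With 1 KO library alone it was -0.88 or -1.15 and did not pass the test (edgeR adjusted p = 0.157 and 0.0544). Bcl2l1 fell from rank 10 to rank 20 in FPKM among the 39 genes.

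Mcl1, a short-lived inhibitor required in the early mouse embryo, had the highest FPKM of all 39 genes in both genotypes. Its values were 123, 89.7, 120 and 119 FPKM in WT1, WT2, KO1 and KO2, which is 82.3% to 89.6% of the summed FPKM of the 4 inhibitors. The groups overlapped, and the log2 fold change was 0.18 (standard error 0.21, edgeR adjusted p = 0.574). Bcl2l2, which encodes Bcl-w, had 23.1 CPM in both WT libraries against 29.1 and 36.1 CPM in KO cells, which gave a log2 fold change of 0.50 (standard error 0.22, edgeR adjusted p = 0.135). Bcl2 itself was the lowest of the 39 genes, with 25 and 19 reads in WT cells against 2 and 12 reads in KO cells. Its log2 fold change of -1.68 had a standard error of 0.75 and did not pass the test (edgeR adjusted p = 0.146). It was -3.31 without KO2 and -0.97 without KO1, so the size rests on the 2 reads of KO1. The summed FPKM of the 4 genes was 142, 109, 134 and 133 in WT1, WT2, KO1 and KO2, with the KO values inside the WT range.

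**Figure D3:**
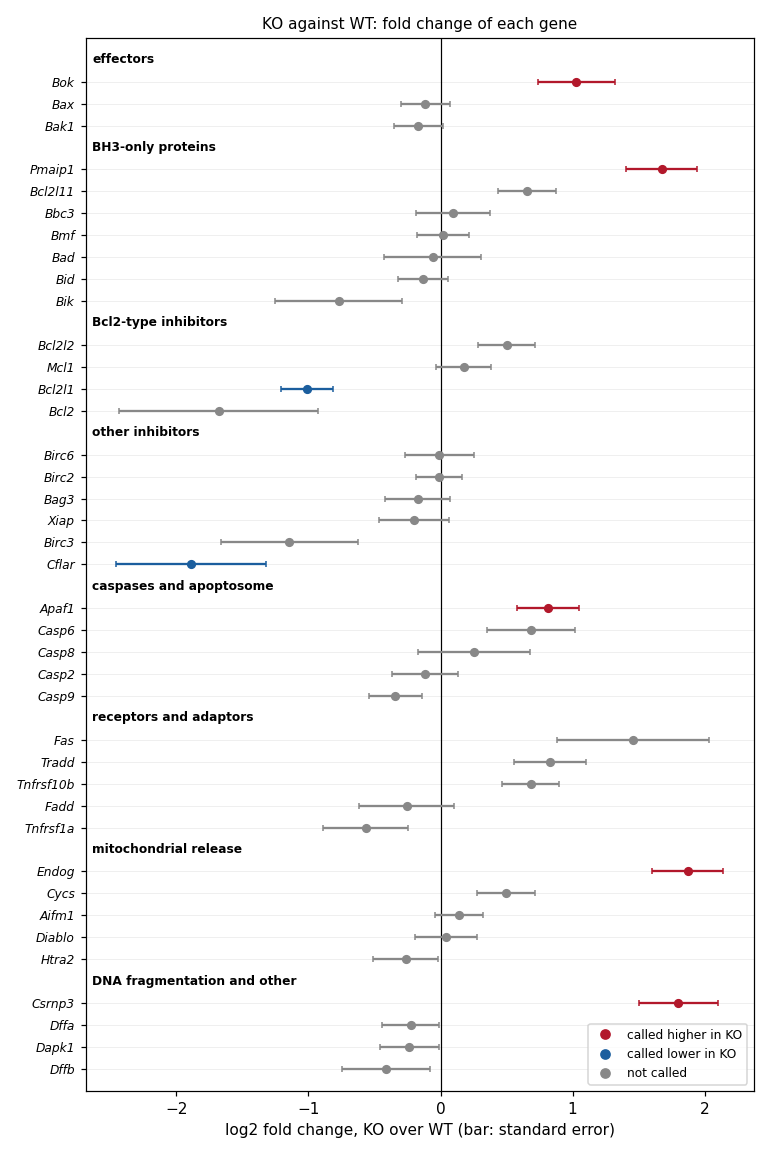
Log2 fold change of KO over WT (linear axis) for each of the 39 genes, grouped by role and sorted within a group; bars are standard errors from edgeR, red marks genes called higher, blue those called lower and grey those not called. The 5 red points lie between 0.81 and 1.87 and the 2 blue points at -1.01 and -1.89; the other 32 genes are grey.

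The other 6 inhibitors mostly act at caspases or receptors, and 1 of them fell. Cflar, which encodes c-FLIP, a catalytically inactive relative of Casp8 that blocks it at death receptors, lies on chromosome 1 from 58750667 to 58798043 on the plus strand. Its level was 21.9 CPM in WT1 but 7.50 CPM in WT2, and KO1 and KO2 had 5.28 and 2.66 CPM. The groups did not overlap, but the WT libraries differed by more than KO1 differed from WT2. The log2 fold change was -1.89 (standard error 0.57) with an edgeR adjusted p of 0.0496, at the edge of the threshold. It was -0.95 without WT1 (edgeR adjusted p = 0.0821) and -2.48 without WT2, and without KO2 it was -1.46 and not called (edgeR adjusted p = 0.163). Cflar was also not called with upper-quartile normalization (edgeR adjusted p = 0.053) or with chromosome medians removed (edgeR adjusted p = 0.0591). Casp8 on the same chromosome, the initiator caspase that Cflar restrains, had 43 and 40 reads in WT cells and 46 and 54 reads in KO cells, a log2 fold change of 0.25 (standard error 0.43, edgeR adjusted p = 0.704).

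Birc3, a ubiquitin ligase of TNF receptor complexes, had 7.73 and 4.06 CPM in WT cells against 3.60 and 1.73 CPM in KO cells. Its log2 fold change was -1.14 (standard error 0.52, edgeR adjusted p = 0.151). It ranged from -1.76 without KO1 to -0.64 without WT1, and Birc3 was called without WT2, at -1.54 (edgeR adjusted p = 0.00254). Birc2, its close paralogue from the same region of chromosome 9, was steady at 71.8, 75.0, 73.1 and 72.5 CPM in WT1, WT2, KO1 and KO2, a log2 fold change of -0.01 with a standard error of 0.17. Xiap, the direct inhibitor of executioner caspases, had 77.0 and 44.6 CPM in WT cells, with the KO values of 51.9 and 53.9 CPM between them. Birc6, a very large protein that binds caspases and Diablo, showed the same order, with 162 and 93.5 CPM in WT cells and 123 and 131 CPM in KO cells. Bag3, a co-chaperone that stabilizes Bcl2 proteins, had a log2 fold change of -0.17 with overlapping groups. The estimates of Xiap, Birc6, Bag3 and Birc2 took either sign: without WT1, Xiap was at 0.22 and Birc6 at 0.41, without WT2 Bag3 was at 0.08, and Birc2 was at 0.19 with chromosome medians removed.

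Of the caspases and their scaffold, Apaf1 rose. This gene encodes the scaffold of the apoptosome and lies on chromosome 10 from 90825173 to 90918632 on the minus strand. It had 39.7 and 60.04 CPM in WT1 and WT2, and 83.4 and 91.8 CPM in KO1 and KO2. The groups did not overlap, and the log2 fold change was 0.81 (standard error 0.23, edgeR adjusted p = 0.0442). Without WT1 it was 0.52, under the fold threshold (edgeR adjusted p = 0.0325), and without WT2 it was 1.14. Without KO1 it was 0.87 and without KO2 it was 0.76, neither of which passed the test (edgeR adjusted p = 0.135 and 0.218). Casp9, the initiator caspase that Apaf1 activates, had 47.1 and 39.7 CPM in WT cells and 35.3 and 33.1 CPM in KO cells. Both KO values of Casp9 were lower, with a log2 fold change of -0.34 that did not pass the test (standard error 0.20, edgeR adjusted p = 0.248).

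Casp6, an executioner caspase, had 7.33 and 13.0 CPM in WT cells against 16.3 and 16.4 CPM in KO cells. Its log2 fold change was 0.68 (standard error 0.33, edgeR adjusted p = 0.177), and it was 0.30 without WT1 and 1.15 without WT2. Casp2, a caspase activated by the PIDDosome, had overlapping groups and a log2 fold change of -0.12 (standard error 0.25).

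None of the 5 receptor and adaptor genes passed edgeR's adjusted test, in either direction, and DESeq2 also called 0. At an unadjusted p under 0.05, 3 of the 5 were higher in KO cells, against 18.7% of all genes tested. Tnfrsf10b, the mouse receptor for the death ligand TRAIL, had 26.7 and 33.8 CPM in WT cells and 44.1 and 52.98 CPM in KO cells, a log2 fold change of 0.68 (standard error 0.22, edgeR adjusted p = 0.059). Fas, the receptor for Fas ligand, was barely read, with 6 and 14 reads in WT cells and 24 and 31 reads in KO cells, a log2 fold change of 1.46 (standard error 0.58, edgeR adjusted p = 0.107). In both genes the KO libraries were above the WT libraries.

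Tradd, the adaptor of TNF receptor 1, had 9.23 and 12.2 CPM in WT cells and 18.0 and 20.1 CPM in KO cells, a log2 fold change of 0.83 (standard error 0.27, edgeR adjusted p = 0.0657). It is the only one of the 39 genes on chromosome 8, whose genes were higher as a group in KO1 and KO2, with medians of 0.51 and 0.52 on the log2 scale relative to all genes. With the median of each chromosome subtracted in the KO libraries, the log2 fold change of Tradd was 0.31 (edgeR adjusted p = 0.449). None of the 39 genes lies on chromosome 11, where a similar shift was present. Tnfrsf1a, which encodes TNF receptor 1 itself, had 13.0 and 17.0 CPM in WT cells and 8.04 and 12.3 CPM in KO cells, a log2 fold change of -0.56 (standard error 0.32, edgeR adjusted p = 0.239). Fadd, the adaptor of Fas, had a log2 fold change of -0.26 with overlapping groups. The ligand genes Fasl, Tnfsf10 and Tnf had at most 2 reads in any library.

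Of the 5 proteins released from mitochondria, Endog rose. It encodes endonuclease G, a mitochondrial nuclease that can reach the nucleus during apoptosis, and lies on chromosome 2 from 30061505 to 30064081 on the plus strand. Its reads numbered 87 and 116 in WT1 and WT2 and 363 and 378 in KO1 and KO2. This is 5.70 and 6.64 CPM against 23.4 and 21.8 CPM, so the groups were far apart and the libraries of each group were close together. The log2 fold change was 1.87 (standard error 0.27, edgeR adjusted p = 0.00475), and Endog kept its call in all 4 fits lacking 1 library, with values from 1.74 to 1.98. In FPKM it moved from rank 18 to rank 5 among the 39 genes. Spout1, a gene on the opposite strand, overlaps Endog in the authors' table and had 567 and 836 reads in WT cells and 1020 and 1339 reads in KO cells. Since the sources used here do not say whether reads were counted by strand, reads shared by the pair cannot be told apart.

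Cycs, which encodes cytochrome c, had 59.9 and 85.7 CPM in WT cells and 109 and 96.3 CPM in KO cells. Its log2 fold change was 0.49 (standard error 0.22, edgeR adjusted p = 0.145), with both KO libraries higher; Cycs has processed copies in the genome whose reads the counting could have split, and the copies named after it, Cycs-ps2 and Cycs-ps3, had 0 reads in every library, which allows up to 3. Aifm1, a flavoprotein that acts in death without caspases, had a log2 fold change of 0.14, and Diablo, which releases caspases from Xiap, of 0.04. Htra2, a protease with a similar role to Diablo, had -0.26 and overlapping groups. Htra2 overlaps Aup1 and Loxl3 on the opposite strand in the table.

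Csrnp3, a nuclear protein of a family linked to cell death, rose, while the other 3 genes of its group did not pass the test. Csrnp3 lies on chromosome 2 from 65676111 to 65861890 on the plus strand. WT1 and WT2 had 9.63 and 6.01 CPM of it, and KO1 and KO2 had 28.5 and 25.8 CPM. Both KO libraries were more than 2-fold above the higher WT library, and the log2 fold change was 1.80 (standard error 0.30, edgeR adjusted p = 0.00774). Per length it stayed among the lowest of the 39 genes, at 0.629 FPKM in WT cells and 2.18 FPKM in KO cells (means, n = 2 each). The family did not move together: Csrnp1, examined with the other pathway genes, fell from 51.9 and 40.9 CPM to 13.4 and 14.4 CPM, giving a log2 fold change of -1.74 (standard error 0.23, edgeR adjusted p = 0.00342). Csrnp2 had a log2 fold change of -0.54 (edgeR adjusted p = 0.136). Dffb, the nuclease that cuts DNA between nucleosomes, and Dffa, its inhibitor and chaperone, had log2 fold changes of -0.41 and -0.23. Dapk1, a death-associated kinase, had -0.24 with overlapping groups.

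Several of the 39 genes are also known as direct targets of p53. Chosen with their values known, these had log2 fold changes of 1.68 for Pmaip1, 1.46 for Fas, 0.81 for Apaf1, 0.68 for Tnfrsf10b, 0.10 for Bbc3 and -0.12 for Bax, of which Pmaip1 and Apaf1 passed the test. To show what letters stand in front of these genes, the RefSeq promoter windows of GRCm38.p6, from 250 bases before to 50 after each gene's start, were searched for the 10-base consensus that p53 contacts as one arm of its full site. This consensus reads the same on both strands. Of the 34 genes of the set that matched the promoter table, 4 had a match (11.8%), against 9.55% of the 27025 genes in the table. The matches upstream of a start are printed 5′ to 3′ on the gene's strand, with 10 flanking bases on each side and the consensus in capitals, since Csrnp3 rose and Bax and Bmf did not pass the test:
Csrnp3: cagcctggtgAAGCATGCCCactccccact
Bax: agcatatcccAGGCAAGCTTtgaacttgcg
Bmf: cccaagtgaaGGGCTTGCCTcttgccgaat
They lie at chr2:65931835-65931864 on the plus strand, chr7:45467080-45467109 on the minus strand and chr2:118544781-118544810 on the minus strand, in GRCm38.p6. The other match was in Birc2. Neither Apaf1, Fas nor Bbc3 had a match in these windows, and Pmaip1 and Tnfrsf10b were not among the 34 genes searched. A match here is only a run of letters, at about the share found in all promoters.

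Of 59 further genes of the apoptosis pathway, 45 had enough reads to be tested. Among them 6 rose (13.3%) and 3 fell (6.67%), where 11.0% and 10.7% of all genes tested did, so the share that rose was near that of all genes. The median log2 fold change was -0.00395. Hrk, a BH3-only gene known from neurons, showed the largest fall, at 1803 and 981 reads in WT1 and WT2 but 86 and 169 reads in KO1 and KO2. This is 118 and 56.2 CPM against 5.53 and 9.77 CPM, giving a log2 fold change of -3.50 (standard error 0.42, edgeR adjusted p = 0.0027). Per length, Hrk had 20.7 FPKM in WT1 and 9.81 FPKM in WT2, above and below Bid at 13.85 and 15.46 FPKM in these libraries. In KO1 and KO2 Hrk had 0.971 and 1.69 FPKM. The BH3-only genes accordingly moved in both directions, with Pmaip1 higher and Hrk lower in both KO libraries.

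Faf1, a Fas-associated factor, fell from 157 and 155 CPM to 101 and 96.6 CPM, giving a log2 fold change of -0.66 (edgeR adjusted p = 0.0314). Steap3, an iron reductase induced by p53, rose from 6.42 and 12.9 CPM to 40.4 and 42.3 CPM, by 2.09 on the log2 scale (standard error 0.33, edgeR adjusted p = 0.00659). Parp1, a DNA repair enzyme cleaved by executioner caspases, rose from 621 and 577 CPM to 1069 and 868 CPM, giving a log2 fold change of 0.69 (edgeR adjusted p = 0.0426). Pdcd4, a translation inhibitor, rose by a log2 fold change of 0.67 (edgeR adjusted p = 0.0342). Pidd1, the scaffold that activates Casp2, had 0.70 and just passed (edgeR adjusted p = 0.0497). Among the 11 other settings, Pidd1 was called in only 5. Bag4, which restrains TNF receptor 1, rose by 0.92 (edgeR adjusted p = 0.012), but it lies on chromosome 8 and had 0.41 after the chromosome medians were removed, where it was not called. Naip1 had 0 and 1 reads in WT cells against 11 reads in each KO library. With each WT library set to a floor of 3 reads, KO cells were 3.65-fold higher, with no allowance for counting error on the KO reads. Naip1 belongs to a family of near-identical copies, so this value is uncertain, and DESeq2 did not call it.

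**Figure D4:**
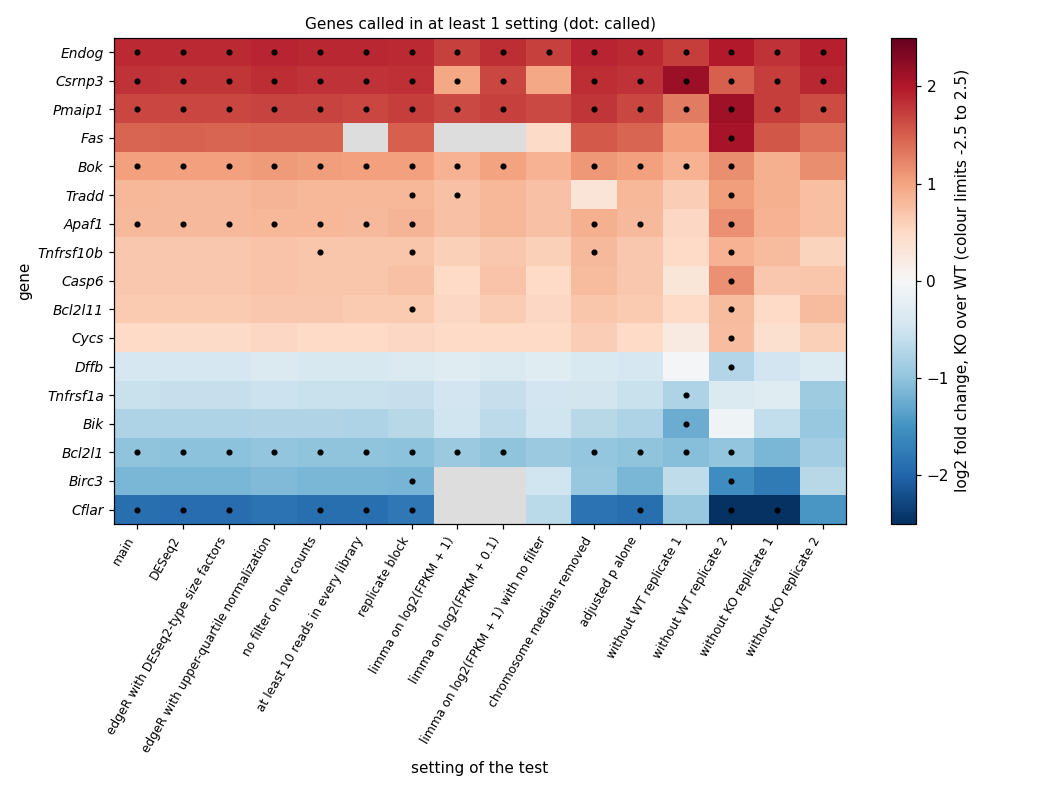
Log2 fold change of KO over WT (colour) for the 17 genes called in at least 1 setting of the test, with genes in rows and settings in columns; a black dot marks a call and grey a setting in which the gene was filtered out. Endog is called in every column, Pmaip1 and Csrnp3 in all but the FPKM test with no filter, and many further dots appear in the column without WT2.

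The plot of calls by setting shows how firmly each gene stood. Its settings include the main fit without the fold threshold, where no call of the main fit can be lost. That setting therefore adds to each count below. Endog was called under all 11 other settings and with each library left out. Pmaip1 and Csrnp3 were called under 10 of 11 settings and with each library left out, the exception being limma on log2(FPKM + 1) with no filter. Bok and Bcl2l1 were called under the same 10 settings, but with neither KO1 nor KO2 left out. Apaf1 was called under 8 of 11 settings and Cflar under 6 of the 9 in which it was tested. More of the 39 genes were called without WT2 than in the main fit, and fewer without KO1 or without KO2. The calls over all genes tested moved the same way, as given below, so these shifts are not particular to the 39 genes. Without WT2, Fas, Tradd, Tnfrsf10b, Casp6, Bcl2l11 and Cycs were also called higher and Birc3 and Dffb lower, and without WT1, Bik and Tnfrsf1a were also called lower.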

How the data were processed

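RNA-seq was performed on 2 WT and 2 Npac KO libraries. Raw counts per gene and FPKM were made by the authors from HISAT alignments and deposited as a table each; the submitters' processing notes name mm10, HISAT2 2.0.5 and featureCounts 1.5.0-p3. Gene coordinates are printed as in the authors' table; only 2 of 39 lie within 1000 bases of those of GRCm38.p6 (mm10), so their build is not given in the sources used here.

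The main test used edgeR 4.0.16 under R 4.3.3 (filterByExpr, TMM, quasi-likelihood test, common biological coefficient of variation 0.235). The alternatives used DESeq2 1.42.0, limma 3.58.1 on FPKM, other scalings and filters, a replicate block, removal of chromosome medians, and each library left out. A further alternative dropped the fold threshold from the main test. CPM are given per library, and FPKM per library or as mean ± SD. Genes were named by membership: all 39 genes, and the further pathway genes that were called, with a few others chosen after their values were seen. The members and lists were chosen with earlier results of these data known. Depth allows 3 reads as the floor for a count of 0, by counting error only. The libraries hold 15850805 to 16965120 counted reads. Some genes are not reported here.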

Additional observations from a re-analysis of the deposited data

Results flagged for a closer look

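Bax and Bmf were the 2 genes of the set in which KO1 lay above both WT libraries and KO2 below both. The log2 difference KO2 minus KO1 was -0.29 for Bax (standard error 0.36) and -0.30 for Bmf (standard error 0.39). In the fit with KO1 and KO2 as separate groups, edgeR gave an adjusted p of 1.0 for both, so a difference between the lines was not shown. That fit called 0 of 18157 genes between KO1 and KO2, with 170 genes at an unadjusted p under 0.05, of which 0 were among the 39.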

How the results depend on the processing

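Over the 39 genes, 5 rose and 2 fell. The number that rose was 8 with the replicate block, 1 with limma on log2(FPKM + 1) with no filter, and 3 to 11 with a library left out; the same numbers hold for the 29 genes outside the inhibitors. The number that fell was 1 with upper-quartile normalization, with limma on log2(FPKM + 1) or log2(FPKM + 0.1), and with chromosome medians removed, 0 with limma and no filter, and 0 to 4 with a library left out. For the 10 inhibitors the same numbers hold for these settings, with 0 to 3 when a library was left out. Of the further pathway genes, 6 rose, against 3 with limma on log2(FPKM + 0.1), 0 with limma and no filter, and 1 to 9 with a library left out; 3 fell, against 5 with no filter on low counts, 6 with the replicate block, 1 with limma and no filter, and 2 to 9 with a library left out. Single genes stayed called or not called in 656 comparisons, lost the call in 47, gained it in 17, and reversed a call in 0. These cover the 39 genes, of which 32 were not called in the main fit, the further pathway genes that were called, and Glyr1. They include the setting without the fold threshold, where no call of the main fit can be lost.

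The numbers in the labels pair the libraries only by name. The WT1 to WT2 and KO1 to KO2 differences correlated at 0.332 across genes, and the replicate block moved the calls over all genes from 1999 to 3128 for those that rose and from 1946 to 2994 for those that fell. Over all genes, 197 rose and 178 fell with limma and no filter, 3571 and 3384 without WT2, 851 and 824 without KO1, and 826 and 821 without KO2. Calls with a KO library left out assume that the lone library varies like the WT pair. Depth is lowest for Bcl2, Fas and Casp8, which had at most 54 reads in any library.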
